A study of Mus musculus with 10 samples.

Results

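AU023070 and AC158549.1 are long non-coding RNA genes that lie at Corin and Adrb1, genes that set how the heart muscle cell handles natriuretic peptides and adrenaline. They were picked from a table of FPKM (sequenced fragments scaled to transcript length and library size) by symbol. All of their transcripts in the table were taken, 3 of 20741 transcripts and 2 of 14787 genes and assembled loci. AU023070 had 1 transcript and AC158549.1 had 2. Earlier results of these data were known when they were picked. Each had been named for a lower mean in Sirt5 knockout ventricles, so the genotype difference is given as a description, with no p-value.

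RNA came from the left ventricles of C57BL/6 mice whose aorta had been banded 6 weeks earlier (transverse aortic constriction, TAC), a model of pressure overload. The 4 Sirt5 knockout samples (replicates 2, 3, 4 and 5) were compared with 6 wild-type (WT) samples (replicates 1, 3, 4, 5, 6 and 7), and all 10 came from banded animals. SIRT5 is a mitochondrial sirtuin that strips acidic acyl groups such as succinyl from lysine residues, and the series asks about its part in restraining hypertrophy of the myocardium. The series' design text describes male mice, gives C57BL/6N as their strain and 5 weeks as their age, and describes a conventional CRISPR-Cas9 knockout. The same text describes a tamoxifen-inducible Cre-ERT2 system with 1 mg of tamoxifen a day for 10 days and a wait of 4 weeks before surgery. It names neither the promoter that drives Cre nor which animals received tamoxifen. No label says that samples came from separate animals, so the spread between samples may be technical in part. The table holds long non-coding transcripts, so Sirt5 itself and the messenger RNAs that define heart muscle were not analysed here, which leaves the genotype labels without a check on the deleted gene. Libraries held an estimated 22.7 to 25.8 M (mega) fragments in knockout and 24.7 to 29.8 M in WT. In knockout replicate 5 the nuclear RNA Malat1 stood far from the rest, at 951 FPKM against 58.4 to 81.8 FPKM in the others. Rmrp, which forms the RNase MRP particle, was listed at 0 in knockout replicate 5 and in WT replicates 3, 5 and 6, and at 824 FPKM or more in the other 6 samples.

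Corin is a serine protease on the surface of heart muscle cells that cuts the precursor of atrial natriuretic peptide into its active form. The peptide makes the kidney excrete salt, relaxes vessels and restrains hypertrophy through its receptor Npr1, which makes cyclic GMP. Adrb1 encodes the main beta-adrenergic receptor of the heart muscle cell, which raises cyclic AMP in answer to noradrenaline and adrenaline and so raises heart rate and force. Long non-coding RNAs beside such genes may have roles of their own or may be by-products of transcription there. No function of AU023070 or AC158549.1 is known from the sources used here.

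AU023070 (ENSMUSG00000093771.1, class lincRNA) lies on chromosome 5 of GRCm38, from 72496200 to 72497104 on the minus strand. In GENCODE M21 that is inside Corin (72300025 to 72504473), on the same strand. Of the 7 Corin transcripts, 5 run across it, and in each of these 5 it sits wholly in intron 1. It begins 7369 bases after the start of the longest Corin transcript and touches 0 Corin exons, with 7266 bases to the exon before it and 24209 bases to the exon after it. The class name lincRNA means intergenic, while the position is intronic. Spliced AU023070 joins an exon of 61 bases to an exon of 326 bases, 387 bases in all. An unspliced Corin RNA would hold the same bases in the same sense, and the FPKM values cannot tell the sources apart.

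**Figure D1:**
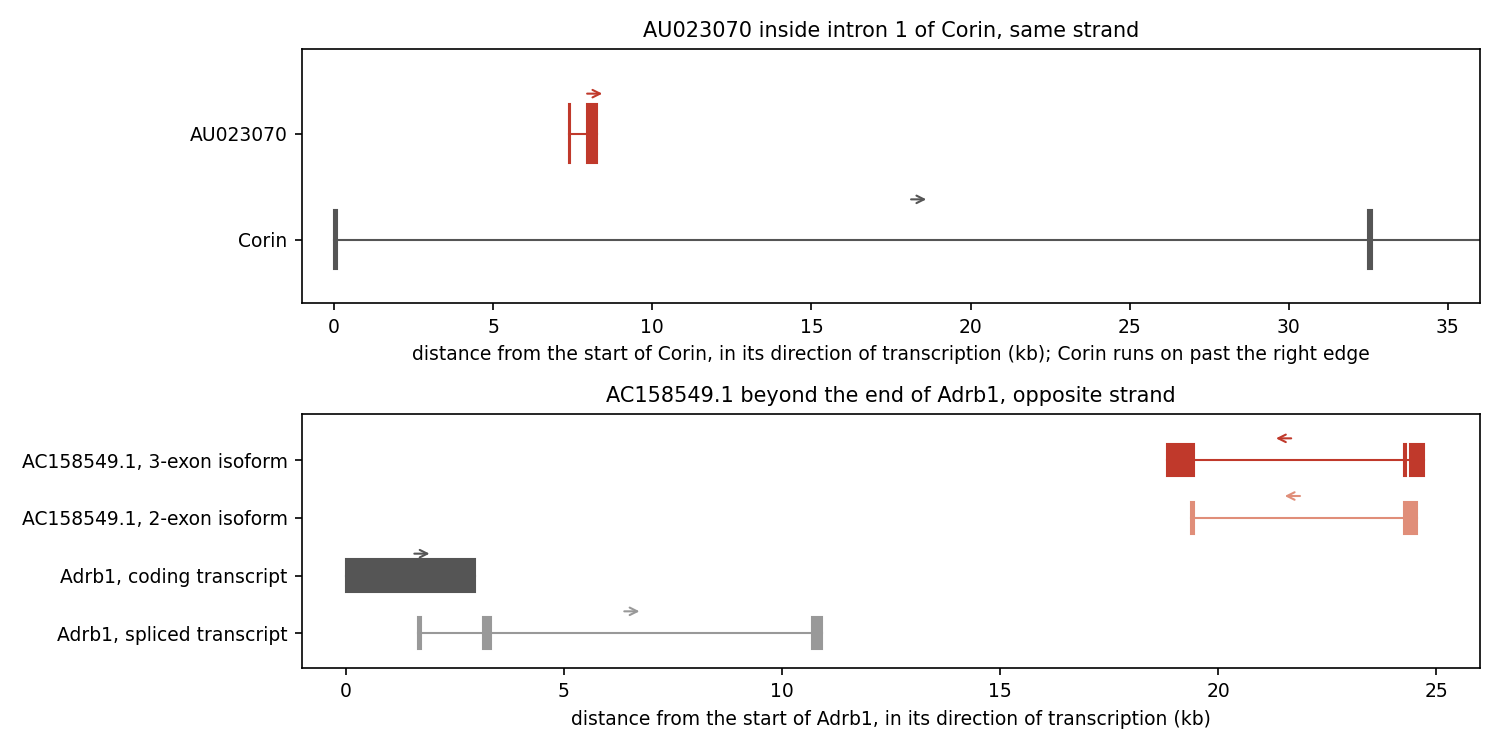
Transcript models from GENCODE M21 drawn to scale, with distance in kb from the start of Corin (longest transcript, upper map) and of Adrb1 (coding transcript, lower map), each in the coding gene's own direction. Boxes are exons, lines introns and arrows the direction of transcription. AU023070 sits in intron 1 of Corin and runs the same way, and AC158549.1 lies beyond Adrb1 and runs towards it.

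AC158549.1 (ENSMUSG00000117696.1, class lincRNA) lies on chromosome 19 from 56741029 to 56746913, on the minus strand. Adrb1 lies on the plus strand from 56722199 to 56733113, so the 3' ends of both genes face each other across 7915 bases. The gap to the end of the single-exon Adrb1 transcript, which codes for the receptor, is 15878 bases. No base of AC158549.1 overlaps Adrb1. The 3-exon isoform (ENSMUST00000235628) has exons of 316, 47 and 624 bases, and the 2-exon isoform (ENSMUST00000237116) has exons of 306 and 72 bases. They share 286 exonic bases, 701 bases are in the 3-exon isoform alone and 92 are in the 2-exon isoform alone. Those 92 bases (56746506 to 56746597) are intron 1 of the 3-exon isoform, kept in the mature 2-exon isoform. The stretch begins with GT and ends with AG, the usual ends of an intron.

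Parts of the transcripts are shown 5' to 3', from the GENCODE M21 transcript sequences on GRCm38, because they show what separates the AC158549.1 isoforms and how AU023070 begins and ends. For the start of AU023070 capitals mark exon 1, followed by 60 bases of exon 2. For its last 60 bases capitals mark the letters ATTAAA. For the 2-exon isoform of AC158549.1 capitals mark the 92 bases that the 3-exon isoform removes as an intron, with 60 bases on each side. For the 3-exon isoform capitals mark exon 2, between 30 bases of exon 1 and 30 bases of exon 3.
AU023070 start: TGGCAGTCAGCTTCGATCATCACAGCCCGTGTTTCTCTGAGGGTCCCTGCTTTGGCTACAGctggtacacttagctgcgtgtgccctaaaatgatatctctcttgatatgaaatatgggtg
AU023070 end: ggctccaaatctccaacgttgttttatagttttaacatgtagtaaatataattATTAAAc
AC158549.1 2-exon isoform: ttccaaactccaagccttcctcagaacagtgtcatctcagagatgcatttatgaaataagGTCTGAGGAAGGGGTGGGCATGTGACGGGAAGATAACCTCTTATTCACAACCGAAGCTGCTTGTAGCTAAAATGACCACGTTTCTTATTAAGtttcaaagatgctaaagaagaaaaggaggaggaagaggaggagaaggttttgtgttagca
AC158549.1 3-exon isoform: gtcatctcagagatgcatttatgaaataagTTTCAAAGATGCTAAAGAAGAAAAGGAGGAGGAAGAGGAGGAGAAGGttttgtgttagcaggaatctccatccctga

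Exon 2 of the 3-exon isoform was rich in purines, with A or G at 40 of 47 bases (85.1%), against 49.5% of the whole isoform. AU023070 ended in an A and T rich stretch, with A or T at 26 of its last 30 bases. The letters ATTAAA, one form of the signal for polyadenylation, began 7 bases before its annotated end. Whether the letters act as a signal there was not tested. Those letters stood in the last 50 bases, read on the transcript's own strand, of 10.8% of the 8519 lincRNA transcripts in the table. AATAAA, the commoner form, stood in that window of 29.9% of them and of 0 of the 3 transcripts. AU023070 and the 2-exon isoform were short among these lincRNA transcripts, with 387 and 378 bases against a median of 804. The 3-exon isoform had 987 bases. GC content was 41.3% in AU023070, 45.5% in the 2-exon isoform and 51.0% in the 3-exon isoform, against a median of 46.1%. The longest reading frame from an ATG to a stop had 47, 44 and 75 codons in the same order, against a median of 57 codons. The longest run of bases shared with any Corin transcript was 10 bases for AU023070, and 11 bases with any Adrb1 transcript for either AC158549.1 isoform, in either sense. Spliced Corin and Adrb1 RNA thus share no longer stretch with them.

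AU023070 was lower on average in Sirt5 knockout ventricles, with overlap between genotypes. It stood at 1.47, 4.57, 3.17 and 1.91 FPKM in knockout replicates 2, 3, 4 and 5, and at 3.47, 2.81, 7.16, 6.18, 6.53 and 5.08 FPKM in WT replicates 1, 3, 4, 5, 6 and 7. Knockout replicates 2 and 5 lay below every WT sample, knockout replicates 3 and 4 lay within the WT range, and 4 of 6 WT samples lay above every knockout sample. The mean was 2.78 ± 1.40 FPKM in knockout (SD, n = 4) and 5.21 ± 1.75 FPKM in WT (SD, n = 6), so that the knockout mean was 53.4% of the WT mean. On the scale of log2(FPKM + 1), which understates changes of low transcripts, the difference was -0.74 (SE 0.282). The median difference over all 1122 genes and loci with a mean of at least 1 FPKM was -0.03, and AU023070 ranked 36 from the lowest. By limma (Benjamini-Hochberg adjusted p under 0.05) 0 of the pair were called, where 0.178% of the 1122 were called in either direction and 0.0891% as lower in knockout. Since the pair was picked on this contrast, nothing is read from that count. The genotypes did not overlap, knockout below WT, in 2.14% of the 1122 and in 0 of the pair. In tissue RNA, fewer cells of a type and less RNA per cell cannot be told apart.

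AC158549.1 showed a like difference in means that leaned on 1 library. It stood at 2.61, 2.88, 3.83 and 0.589 FPKM in knockout replicates 2, 3, 4 and 5, and at 3.28, 2.47, 6.06, 3.72, 5.18 and 3.14 FPKM in WT replicates 1, 3, 4, 5, 6 and 7. Only knockout replicate 5 lay below every WT sample, and only WT replicates 4 and 6 lay above every knockout sample. The mean was 2.48 ± 1.36 FPKM in knockout (SD, n = 4) and 3.98 ± 1.36 FPKM in WT (SD, n = 6). The difference on the log2(FPKM + 1) scale was -0.59 (SE 0.304), and -0.25 (SE 0.227) without knockout replicate 5. AU023070 kept a difference of -0.63 (SE 0.312) without that library, and its difference was nearest 0 without knockout replicate 2 (-0.55, SE 0.293). Among the 6 samples with Rmrp above 0, 3 of each genotype, the differences were -0.65 (SE 0.356) for AU023070 and -0.30 (SE 0.249) for AC158549.1. Among the 4 samples with Rmrp at 0, AC158549.1 had 0.589 FPKM in the knockout sample and 2.47 to 5.18 FPKM in 3 WT samples, and AU023070 had 1.91 FPKM in the knockout sample and 2.81 to 6.53 FPKM in those WT samples. The part of library differences in these values was not tested.

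**Figure D2:**
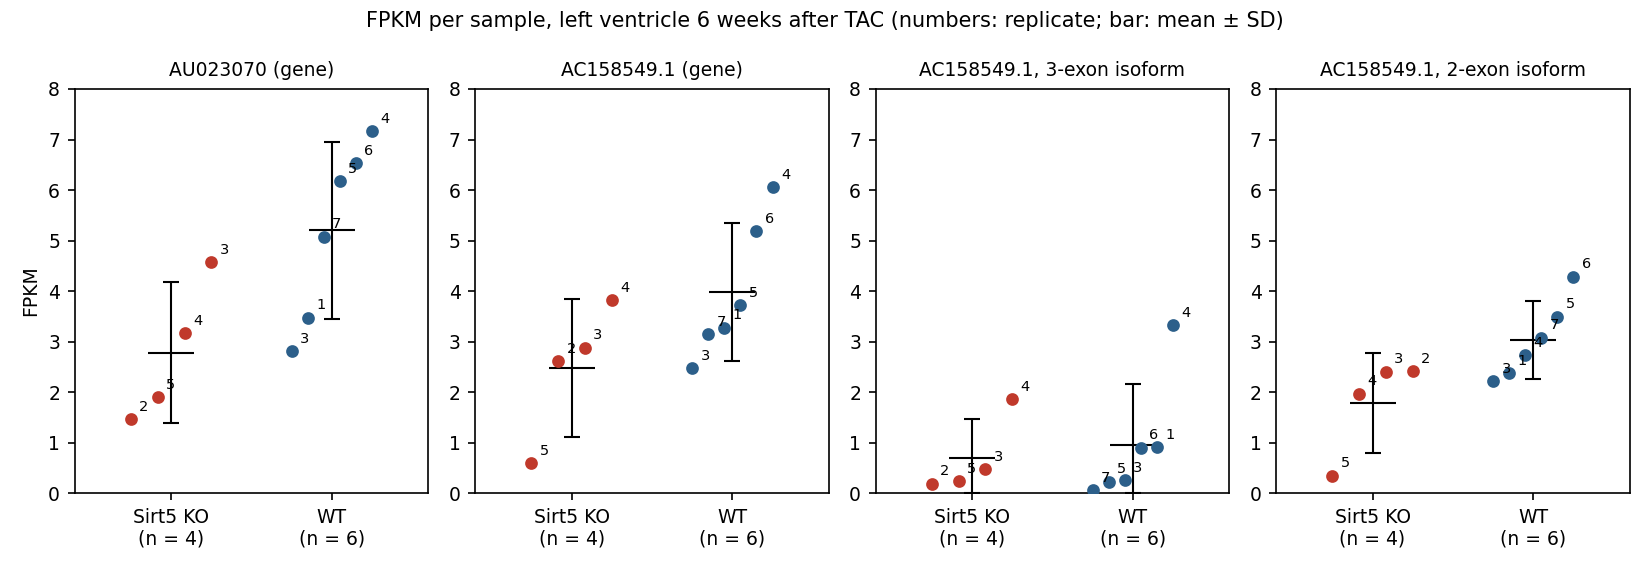
FPKM of both genes and of the AC158549.1 isoforms in each sample, Sirt5 KO (n = 4) left and WT (n = 6) right. Points are samples with their replicate number, and bars give mean ± SD (a bar that would pass below 0 ends at 0). The genotypes overlap in every panel, and knockout replicate 5 is lowest for AC158549.1 and the 2-exon isoform.

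The isoforms of AC158549.1 varied in different ways. The 2-exon isoform, which keeps the intron, stood at 2.42, 2.40, 1.97 and 0.347 FPKM in knockout replicates 2, 3, 4 and 5, and at 2.37, 2.22, 2.73, 3.496, 4.28 and 3.08 FPKM in WT replicates 1, 3, 4, 5, 6 and 7. Knockout replicates 4 and 5 lay below every WT sample, and 4 of 6 WT samples lay above every knockout sample. Its mean was 1.78 ± 0.981 FPKM in knockout (SD, n = 4) and 3.03 ± 0.772 FPKM in WT (SD, n = 6), a difference of -0.60 on the log2(FPKM + 1) scale (SE 0.289), and of -0.29 (SE 0.166) without knockout replicate 5. For the isoforms these are differences of group means with a pooled SE, outside the limma fit.

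The 3-exon isoform was uneven within each genotype. It stood at 0.191, 0.475, 1.86 and 0.242 FPKM in knockout replicates 2, 3, 4 and 5, and at 0.906, 0.256, 3.33, 0.227, 0.901 and 0.0645 FPKM in WT replicates 1, 3, 4, 5, 6 and 7. The sample numbered 4 was the highest in either genotype. Its mean was 0.691 ± 0.786 FPKM in knockout (SD, n = 4) and 0.947 ± 1.22 FPKM in WT (SD, n = 6), a difference of -0.12 on the log2(FPKM + 1) scale (SE 0.443). Its sign rests on single libraries, since the difference was 0.15 (SE 0.324) without WT replicate 4 and 0.01 (SE 0.503) without knockout replicate 2. The 2-exon isoform made up 51.5 to 92.7% of the gene's FPKM in knockout and 45.1 to 98.0% in WT, and WT replicate 4 was the only sample where the 3-exon isoform had the larger FPKM.

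Because the 3-exon isoform is the longer one, it holds more fragments for a given FPKM, and summing fragments in place of FPKM gives a different picture. AC158549.1 drew an estimated 28.4, 33.2, 58.4 and 8.75 fragments in knockout replicates 2, 3, 4 and 5, and 46.6, 27.7, 128.8, 39.6, 71.3 and 30.3 fragments in WT replicates 1, 3, 4, 5, 6 and 7. The 3-exon isoform took 71.1% of them in knockout replicate 4, 64.5% in knockout replicate 5 and 76.1% in WT replicate 4. With isoforms weighted by length, an alternative chosen after the data were seen, the difference between genotypes on the log2 scale was -0.39 (SE 0.2995). StringTie estimates how shared reads split between isoforms, and 286 of the 378 bases of the 2-exon isoform are shared.

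Few fragments stood behind each value. AU023070 rested on an estimated 14.6 to 42.7 fragments in knockout and 27.6 to 82.7 in WT, which gives an exact 95% Poisson interval of 0.841 to 2.48 FPKM in knockout replicate 2 and of 5.73 to 8.91 FPKM in WT replicate 4, its lowest and highest samples. The spread between samples of a genotype was 50.3% of the mean in knockout and 33.6% in WT. For the 2-exon isoform the lowest sample, knockout replicate 5, held about 3 fragments, with an exact 95% Poisson interval of 0.0692 to 0.980 FPKM that lies below the point values of the other 9 samples. For the 3-exon isoform, WT replicate 7 held about 2 fragments, with an interval of 0.00994 to 0.297 FPKM that takes in the values of knockout replicates 2 and 5 and of WT replicates 3 and 5. These intervals cover counting error only, and they take fragments as whole numbers estimated from FPKM, transcript length and estimated depth.

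Within WT, the samples with more AU023070 also had more AC158549.1. Pearson's r of the log2(FPKM + 1) values was 0.87 over 6 samples (exact permutation p = 0.0361, two-sided, over all 720 pairings) and Spearman's rho was 0.94 (exact permutation p = 0.0167). WT replicates 4 and 6 were highest for both genes and WT replicate 3 was lowest for both. Without WT replicates 1 and 3, which lay farthest from the median of AU023070, r was 0.93. Among 9 relations computed within WT, the exact permutation p adjusted by Benjamini-Hochberg was 0.163 for r and 0.15 for rho, so the relation did not pass the correction. Without WT replicate 3, 4 or 5 r was 0.78, 0.83 and 0.92, with an exact permutation p of 0.075, 0.05 and 0.0583. With the 2-exon isoform alone in place of the gene, r was 0.74 (exact permutation p = 0.0931), and without WT replicates 1 and 3 it was 0.00464, so that relation rests on those samples. For that isoform rho was 0.66 (exact permutation p = 0.175). With the 3-exon isoform alone r was 0.45 (exact permutation p = 0.364), rho was 0.37 (exact permutation p = 0.497), and r was 0.86 without the same samples. With isoforms weighted by length r was 0.68 (exact permutation p = 0.132). The 4 knockout samples are too few for a correlation. Their order differed between the genes, since AU023070 was highest in knockout replicate 3 and lowest in replicate 2, and AC158549.1 was highest in replicate 4 and lowest in replicate 5.

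Library depth moved with AC158549.1 in the same samples. WT replicates 4 and 6 were the deepest libraries, at an estimated 29.8 and 28.4 M fragments, against 24.7 to 26.1 M in the other 4 WT libraries. Depth had an r of 0.93 with AC158549.1 (exact permutation p = 0.0125, adjusted 0.113) and of 0.63 with AU023070 (exact permutation p = 0.161, adjusted 0.29) over the 6 WT samples, and rho was 0.89 (exact permutation p = 0.0333) and 0.71 (exact permutation p = 0.136). Without WT replicates 4 and 6, r was 0.27 with AC158549.1 and -0.25 with AU023070, so these relations rest on those libraries. The share of summed FPKM at Gm26917 and Gm42418, loci that overlap ribosomal RNA sequence, had an r of -0.69 with AC158549.1 (exact permutation p = 0.139) and of -0.30 with AU023070 (exact permutation p = 0.542), with rho of -0.66 (exact permutation p = 0.175) and -0.60 (exact permutation p = 0.242). Without WT replicates 4 and 5, farthest in that share, these r were -0.91 and -0.62. Mhrt, a transcript of heart muscle cells opposite Myh7, had an r of 0.60 with AU023070 (exact permutation p = 0.225, rho 0.54 with exact permutation p = 0.297) and of 0.24 with AC158549.1 (exact permutation p = 0.682, rho 0.37 with exact permutation p = 0.497). Without WT replicates 1 and 5 the r of Mhrt was 0.69 with AU023070 and 0.54 with AC158549.1. The smallest adjusted exact permutation p of the 9 relations was 0.113 for r and 0.15 for rho. Knockout libraries averaged 24.1 ± 1.30 M fragments (SD, n = 4) and WT libraries 26.7 ± 2.01 M (SD, n = 6). The share at Gm26917 and Gm42418 was 48.6 ± 2.41% in knockout (SD, n = 4), with all 4 samples above the WT median, and 42.8 ± 6.19% in WT (SD, n = 6). FPKM already divides by depth, and the part of depth and of that share in the difference between genotypes and in the covariation was not tested.

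**Figure D3:**
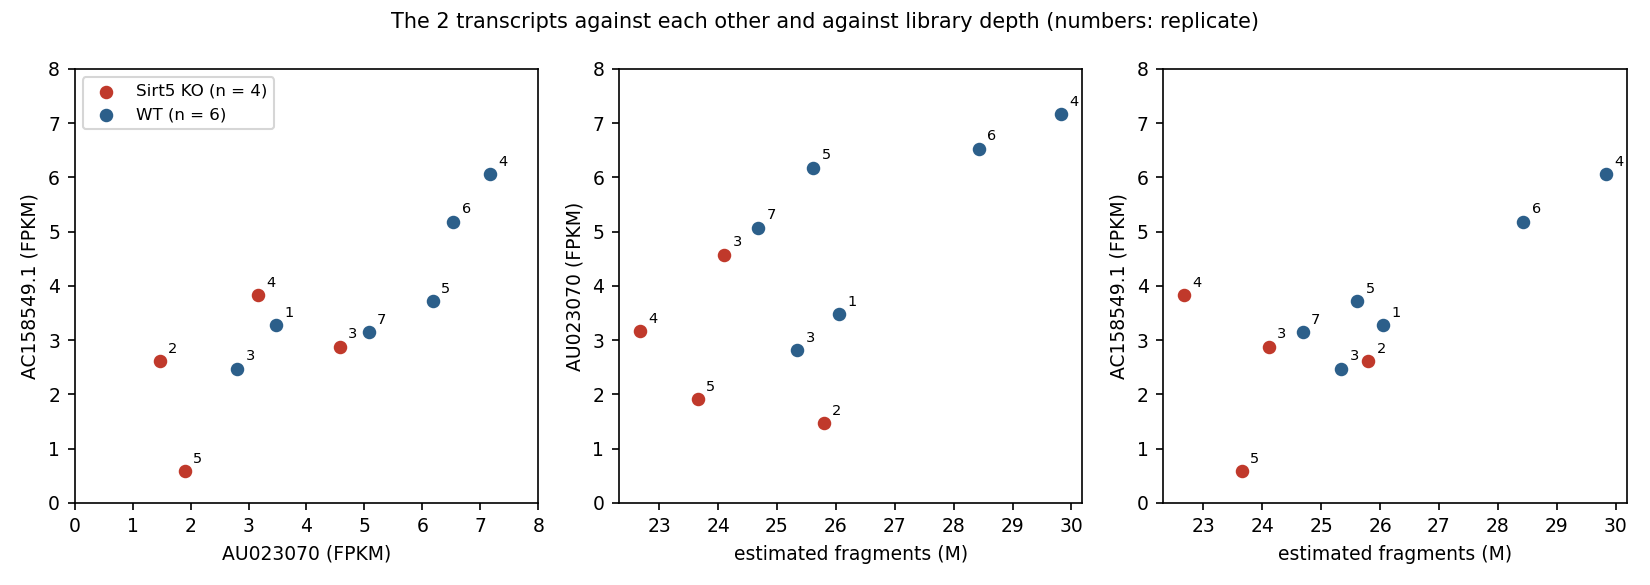
Left, AC158549.1 against AU023070 in FPKM; centre and right, each gene in FPKM against library depth (estimated fragments, axis scale as labelled). Points are samples with their replicate number, Sirt5 KO (n = 4) and WT (n = 6). WT replicates 4 and 6 are highest for both genes and are the deepest libraries, at 29.8 and 28.4 M fragments.

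Across the 10 samples, with each genotype centred on its own mean, AU023070 and AC158549.1 had an r of 0.62, and 0.71 without knockout replicate 5. The genes of such a pair are read from the same libraries, which differ in depth and in their shares of ribosomal RNA loci, and these r are a description with no test. Of the 1121 other genes and loci tested, 5.17% had an r with AU023070 at least as high, and 10.5% had an r with AC158549.1 at least as high. The median r over all of them was 0.06 with AU023070 and 0.07 with AC158549.1, so a partner this close was not rare for either gene. Over these 10 samples Mhrt had an r of 0.47 with AU023070 and 0.67 with AC158549.1, and 0.41 and 0.32 without knockout replicate 5. Mhrt itself stood at 0.835 to 4.63 FPKM in knockout and 1.22 to 5.78 FPKM in WT. Carmn, a smooth muscle transcript, had r of 0.37 and 0.28 with AU023070 and AC158549.1. For the fibroblast transcript Meg3 the r was -0.24 with AU023070 and -0.52 with AC158549.1, and -0.09 and 0.03 without knockout replicate 5. For H19, a transcript of fetal muscle, r was -0.24 with AU023070 and -0.52 with AC158549.1, and -0.03 and 0.43 without knockout replicate 5. Of these marker transcripts, Carmn stood at 9.42 to 12.5 FPKM in knockout and 12.0 to 18.0 FPKM in WT, Meg3 at 1.30 to 7.92 FPKM in knockout and 0.517 to 2.99 FPKM in WT, and H19 at 1.32 to 4.21 FPKM in knockout and 0.760 to 1.92 FPKM in WT. Dnm3os, another fibroblast transcript, stood at 0.206 to 4.65 FPKM in knockout and 0.0839 to 0.801 FPKM in WT, and 0 of these 5 markers were at 0 in a sample. The highest values of Meg3, H19 and Dnm3os and the lowest of Mhrt were in knockout replicate 5. Their part in the values of AU023070 and AC158549.1 was not tested.

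**Figure D4:**
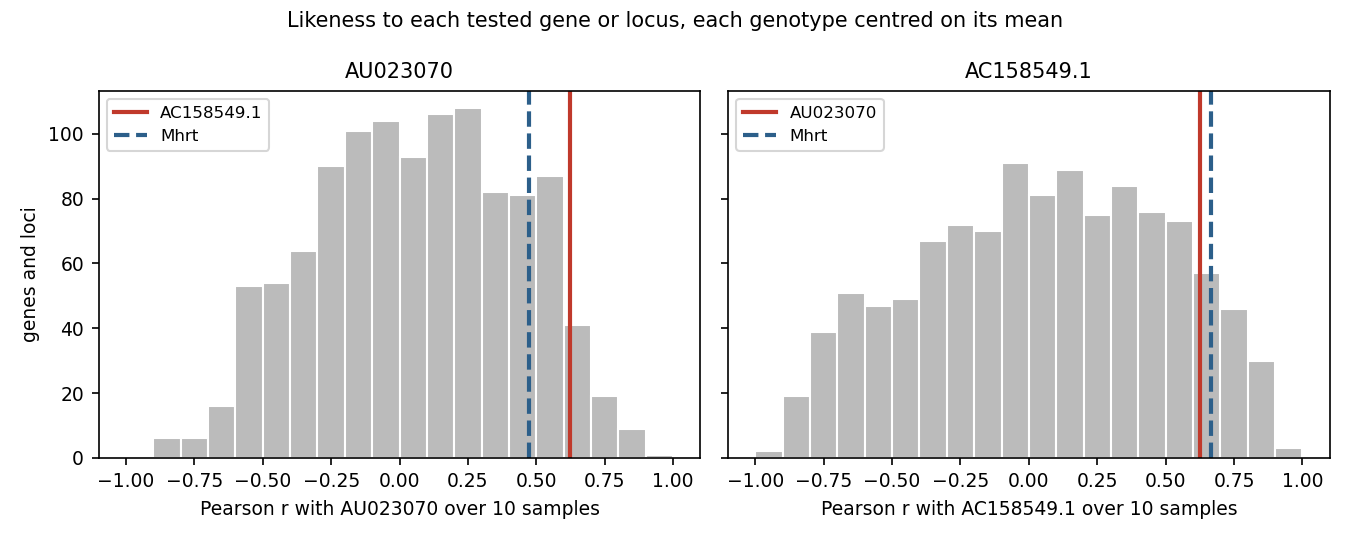
Number of genes and loci by their Pearson r with AU023070 (left) and AC158549.1 (right) over 10 samples, each genotype centred on its mean. The solid line marks the other gene of the pair (r of 0.62) and the dashed line Mhrt (0.47 and 0.67), and 5.17% and 10.5% of the 1121 genes and loci lie at or above the solid line.

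The annotated genes most like AU023070 were Gm37123, a transcript inside Pik3ca (r of 0.87), the lincRNA Gm19277 (0.85), Gm20705 inside Foxp1 (0.77), Gm42480 inside Pcdh7 (0.76) and Foxo6os (0.72). Gm37123 stood at 0.752, 1.91, 1.25 and 1.43 FPKM in knockout replicates 2, 3, 4 and 5, and between 0.786 and 1.99 FPKM in WT. The annotated genes most like AC158549.1 were D830032E09Rik (0.88), Gm13111 (0.86), Gm19277 (0.86), 4930481A15Rik (0.85) and Gm36372 (0.83). Each of these 5 was lowest in knockout replicate 5, and without that library their r was 0.58 to 0.77. Assembled loci were left out of these lists, and some had a higher r. Such were MSTRG.34278 with AU023070 (0.91) and MSTRG.10771 with AC158549.1 (0.94). Gm19277 was the only gene on both lists. It stood at 0.347, 1.17, 1.33 and 0.118 FPKM in knockout replicates 2, 3, 4 and 5, and at 0.945, 0.636, 1.88, 1.35, 1.21 and 1.12 FPKM in WT replicates 1, 3, 4, 5, 6 and 7.

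The annotated genes least like AU023070 were Gm13481 (r of -0.79), 6530402F18Rik (-0.78), C030013C21Rik (-0.72), A730017L22Rik (-0.69) and Gm49759 (-0.68). Those least like AC158549.1 were C030013C21Rik (-0.97), A130012E19Rik (-0.90), Gm42418 (-0.85), Snhg17 (-0.82) and Malat1 (-0.79). Without knockout replicate 5 the r with AC158549.1 was -0.07 for Malat1, -0.46 for Snhg17, -0.55 for Gm42418 and -0.79 for A130012E19Rik. C030013C21Rik, a sense intronic transcript inside the myosin gene Myo1d, was on both lists and had an r of -0.94 with AC158549.1 without knockout replicate 5. It stood at 1.13, 0.894, 0.745 and 2.15 FPKM in knockout replicates 2, 3, 4 and 5, and at 1.12, 1.497, 0.632, 1.008, 0.671 and 0.943 FPKM in WT replicates 1, 3, 4, 5, 6 and 7. The samples highest for AC158549.1, WT replicates 4 and 6, were thus the lowest for C030013C21Rik, and knockout replicate 5 was the reverse.

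Around both genes the other annotated non-coding transcripts of the table were near the floor. Assembled loci had no position here, so any that lie near either gene are not counted. Within 500 kb of AU023070 the table held 5 other annotated genes. Gm20647, which runs antisense to Corin, was listed at 0 in all 10 samples. Gm9870, Gm43815 and Gm43499 reached at most 0.243, 0.754 and 0.0690 FPKM in knockout, and Gm9870 and Gm43499 reached at most 0.224 and 0.501 FPKM in WT, where Gm43815 was listed at 0. Within 500 kb of AC158549.1 the table held 3 other annotated genes. AC116849.1 averaged 0.138 ± 0.111 FPKM in knockout (SD, n = 4) and 0.239 ± 0.128 FPKM in WT (SD, n = 6), and AC116849.2 and Gm17197 averaged at most 0.0602 FPKM in either genotype.

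The same held at the other genes of both signalling systems. A list of 43 coding genes covered the natriuretic peptide axis (14 genes, such as Nppa, Npr1 and Furin) and the beta-adrenergic axis (29 genes, such as Grk2, Adcy5, Pln and Ryr2). None of the 43 was itself in the table. Besides AU023070 and AC158549.1, the table held 39 annotated non-coding genes that overlap one of them or lie within 10 kb. Of these 39, 11 were listed at 0 in all samples, and of the other 28 the knockout mean was lower in 12 and higher in 16. Of the 1122 genes and loci with a mean of at least 1 FPKM, 55.5% had a log2 fold change below 0. The 28 did not pass that filter as a set, and nothing is read from their split. Gm47493, inside Ryr2, the calcium release channel of the heart muscle cell, on its strand, was the only one with a mean of at least 1 FPKM, and it did not pass limma (log2 fold change 0.32, SE 0.715, limma adjusted p = 0.903). It was listed at 0 in knockout replicates 3 and 5 and in WT replicates 1, 3, 5 and 6, and stood at 2.73 and 4.99 FPKM in knockout replicates 2 and 4 and at 3.75 and 4.98 FPKM in WT replicates 4 and 7. The remaining 38 averaged at most 0.631 FPKM over all samples. Gm13054, antisense to Nppa, the gene of atrial natriuretic peptide, averaged 0.0358 FPKM in knockout and 0.0122 FPKM in WT. AU023070 and AC158549.1 had the highest means over all 10 samples of the 41. The pair was picked with earlier results of these data known and the other 39 by position, so nothing is read from that rank. FPKM is per length, but the values of AU023070 may hold unspliced Corin RNA. In single samples Gm47493 was above both in knockout replicates 2 and 4, and above AC158549.1 in WT replicate 7.

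Per length, AU023070 was the more abundant of the pair in all 6 WT samples, with a ratio of AU023070 to AC158549.1 between 1.06 and 1.66. In knockout the ratio was 0.562, 1.59, 0.828 and 3.23 in replicates 2, 3, 4 and 5, so either gene could be the higher. The exact 95% Poisson interval of AU023070 took in the value of AC158549.1 in WT replicates 1, 3, 4 and 6 and in knockout replicate 4. The order there is within counting error. In WT replicates 5 and 7 and in knockout replicates 2, 3 and 5 it did not take it in. This comparison leaves out the counting error of AC158549.1, which rested on an estimated 8.75 to 39.6 fragments in those samples. It therefore does not place their order outside counting error. The spread of the ratio was 77.4% of its mean in knockout and 19.4% in WT.

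**Figure D5:**
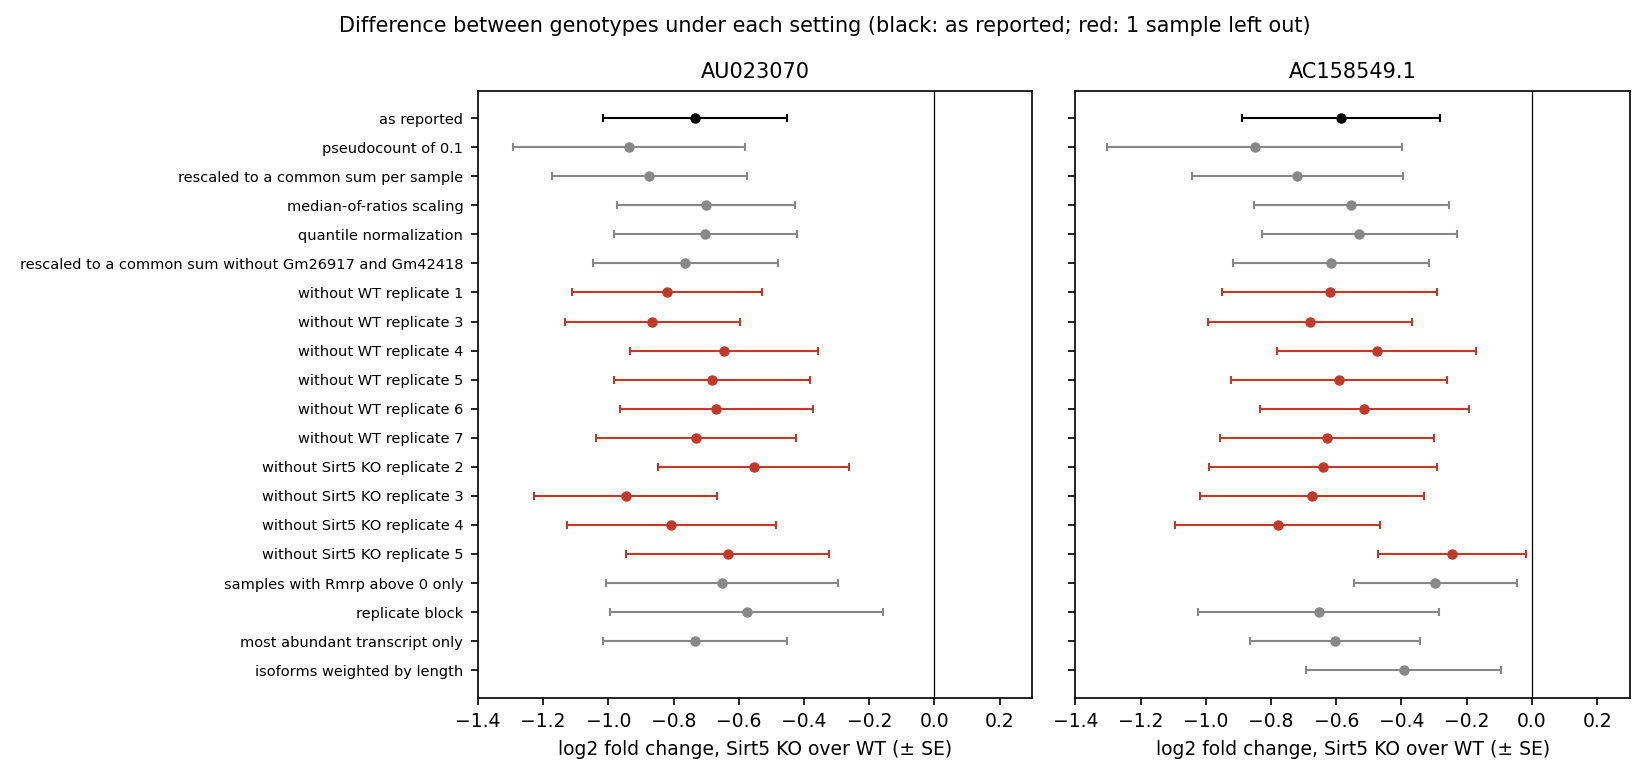
Log2 fold change of AU023070 (left) and AC158549.1 (right), Sirt5 KO over WT, with its standard error under each setting. The black point is the value as reported, red points leave out 1 sample, and grey points change the scaling, pseudocount, samples, model or isoforms. All points lie below 0, from -0.95 to -0.55 for AU023070 and from -0.85 to -0.25 for AC158549.1.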

How the data were processed

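The values analysed are FPKM per transcript, as deposited. Libraries were depleted of ribosomal RNA and the second cDNA strand was digested, per the labels' design text; the authors aligned reads to GRCm38 by HISAT2 and obtained FPKM from StringTie 1.2.0. HTSeq 0.6.1 counts are also mentioned there and were not used. No source used here states whether StringTie used read strand. Transcripts were matched by identifier to GENCODE M21 (18969 of 19112 Ensembl identifiers). FPKM was summed per gene. For the 1122 genes and loci with a mean of at least 1 FPKM, log2(FPKM + 1) was fitted with limma 3.58.1 in R 4.3.3 (trend, genotype only), a fit tested on simulated data. Correlations within WT used exact permutation (Python 3.11.15). Depth was estimated from FPKM times length of single-exon transcripts. The commonest value within a preset range was taken as that of 1 fragment, and this was not checked against read counts. These estimates set the precision of each value. Named genes were the pair, annotated genes above 0 within 500 kb, and listed pathway transcripts with a mean of at least 1 FPKM. For each gene of the pair, the 5 annotated genes with the highest and the 5 with the lowest r were also named. Gm20647, Gm13054 and the marker transcripts were added, Gm13054 after its values were seen. Members and lists were chosen with earlier results of these data known. Alternatives changed the pseudocount, filter, scaling, samples, isoforms or model.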

Additional observations from a re-analysis of the deposited data

Results flagged for a closer look

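In 7 of 25 sets of values, each 1 gene or measure in 1 genotype, the extreme sample was past Dixon's 95% limit. For sets of normally distributed values about 1 in 20 passes by chance. That rate does not apply to the 3 sets (Gm43815 in knockout, Gm43499 in either genotype) where all samples but 1 are listed at 0, which pass by construction. It need not hold for the other flagged sets, which are skewed or hold samples listed at 0. The 3-exon isoform of AC158549.1 stood at 1.86 FPKM in knockout replicate 4 (other knockout samples 0.191 to 0.475 FPKM) and at 3.33 FPKM in WT replicate 4 (0.0645 to 0.906 in the other WT samples). The other 5 were neighbours near the floor. Gm43815 stood at 0.754 FPKM in knockout replicate 3 and was listed at 0 in the others. Gm43499 stood at 0.0690 FPKM in knockout replicate 2 and at 0.501 FPKM in WT replicate 1, and was listed at 0 in the rest of each genotype. Gm17197 reached 0.112 FPKM in knockout replicate 2, where the other 3 knockout samples had 0 to 0.00553 FPKM, and AC116849.2 reached 0.140 FPKM in WT replicate 3, where the other 5 WT samples had 0 to 0.0455 FPKM.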

How the results depend on the processing

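The log2 fold change of AU023070 stayed between -0.95 and -0.55 and that of AC158549.1 between -0.85 and -0.25 under the alternatives run (18 and 19), and no value crossed 0. AC158549.1 was nearest 0 without knockout replicate 5 (-0.25) and among samples with Rmrp above 0 (-0.30); the cause was not tested. Rescaling to a common sum moved the median of all loci to -0.14, and the differences were then -0.87 for AU023070 and -0.72 for AC158549.1. The r of AU023070 with AC158549.1 within WT missed an exact permutation p of 0.05 after quantile normalization (0.83, p = 0.0611), with the most abundant transcript of each gene only (0.74) and with isoforms weighted by length (0.68), and ranged from 0.78 to 0.92 when 1 WT sample was left out (exact permutation p from 0.0167 to 0.075). The count of 2 limma calls among all loci (1 lower in knockout) was 7 after rescaling to a common sum (7 lower), 1 after rescaling without Gm26917 and Gm42418 (chosen after the data were seen), 1 among samples with Rmrp above 0, 1 at a mean of at least 0.1 FPKM, 0 without a filter (429 at an unadjusted p below 0.05) and 1 to 3 with 1 sample left out. With the replicate block, limma made 0 calls (103 at an unadjusted p below 0.05). The differences were then -0.58 (SE 0.418) for AU023070 and -0.65 (SE 0.370) for AC158549.1. Only numbers found in both genotypes inform these differences, so they rest on fewer samples. In replicate 3 both genes were higher in knockout than in WT (4.57 against 2.81 FPKM and 2.88 against 2.47 FPKM). Knockout and WT share the numbers 3, 4 and 5. Same-numbered samples deviated from their group means with correlations across loci of -0.16, 0.18 and 0.08. Of the 6 samples with a shared number, 3 were closest to their own number. With 3 shared numbers this check is too small to say whether the numbers pair the samples. Leaving out each sample in turn, chosen after the data were seen, gave -0.73 to -0.29 for the 2-exon isoform of AC158549.1 and -0.41 to 0.15 for its 3-exon isoform, whose sign turned without WT replicate 4 (0.15) and without knockout replicate 2 (0.01). Depth limits the 3-exon and the 2-exon isoform of AC158549.1 most, with as few as 1.57 and 3.11 fragments in a sample.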
